A study of Gallus gallus with 8 samples.

Results

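The transcription factors RUNX2, DLX5, DLX6, MSX1 and MSX2, which act in cells of the osteoblast lineage, were followed in intervertebral discs (IVDs) of the chicken tail. The 5 genes were chosen by symbol as known regulators of osteoblast formation, and all 5 were found among the 24154 genes of the deposited count table. RNAseq compared the remodeling discs of the pygostyle, the fused end of the bird tail (fusing pygostyle IVDs, 4 libraries), with permanent discs between the caudal vertebrae that stay mobile (free IVDs, 4 libraries). Both tissues were taken from 10-wk-old chickens, for which no treatment or genetic change is given. The breed is given as white leghorn in the sample labels and as Tetra in the study's methods. The sources used here state that there were 8 chickens but not whether fusing and free discs shared birds. The comparison asks whether the regulators of bone formation differ in level between discs that are turning into bone and discs that are not.

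RUNX2 is a runt-domain factor without which mice form no osteoblasts, and it also drives the enlargement (hypertrophy) of cartilage cells. It binds DNA with the partner subunit CBFB. The DLX and MSX genes encode homeodomain proteins that lie downstream of bone morphogenetic protein (BMP) signals. DLX5 and DLX6 are neighboring, related genes that promote skeletal differentiation in mice, while MSX1 and MSX2 are best known from the skull, teeth and limb buds, where MSX proteins can act as repressors. SP7 (osterix) acts after RUNX2 in the same lineage.

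The libraries held between 5682402 and 18434459 counts. Levels are given as CPM, in which each library's counts are brought to the same size with TMM factors that correct for differences in composition. A gene was called different at a Benjamini-Hochberg adjusted P under 0.05 in the edgeR quasi-likelihood test and an absolute log2 fold change (fusing over free) over 1. By this rule 1797 of 13639 genes tested (13.2%) were up-regulated and 1315 (9.64%) were down-regulated in fusing pygostyle IVDs. In 2669 genes (19.6%) all 4 fusing libraries lay above all 4 free libraries. Among the osteoblast factors, 4 of 5 were tested, and MSX2 had too few counts to pass the filter. A gene low in free IVDs can pass that filter through its fusing libraries alone, as DLX6 did. DLX5, with 2 counts in free replicate 2, and MSX1, with 6 counts in free replicate 4, also needed fusing libraries to pass. Only RUNX2 had enough counts in its free libraries alone. That DLX6, DLX5 and MSX1 were tested is thus no support for a difference. Of the 4 tested, DLX6 and MSX1 were up-regulated, none was down-regulated, and RUNX2 and DLX5 were not called, although in all 4 of them every fusing library lay above every free library. The median log2 fold change of the 4 was 2.94, against 0.01 over all genes tested. These are bulk samples, in which more cells of a type and more RNA per cell cannot be told apart. No sequence is shown for these genes.

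**Figure D1:**
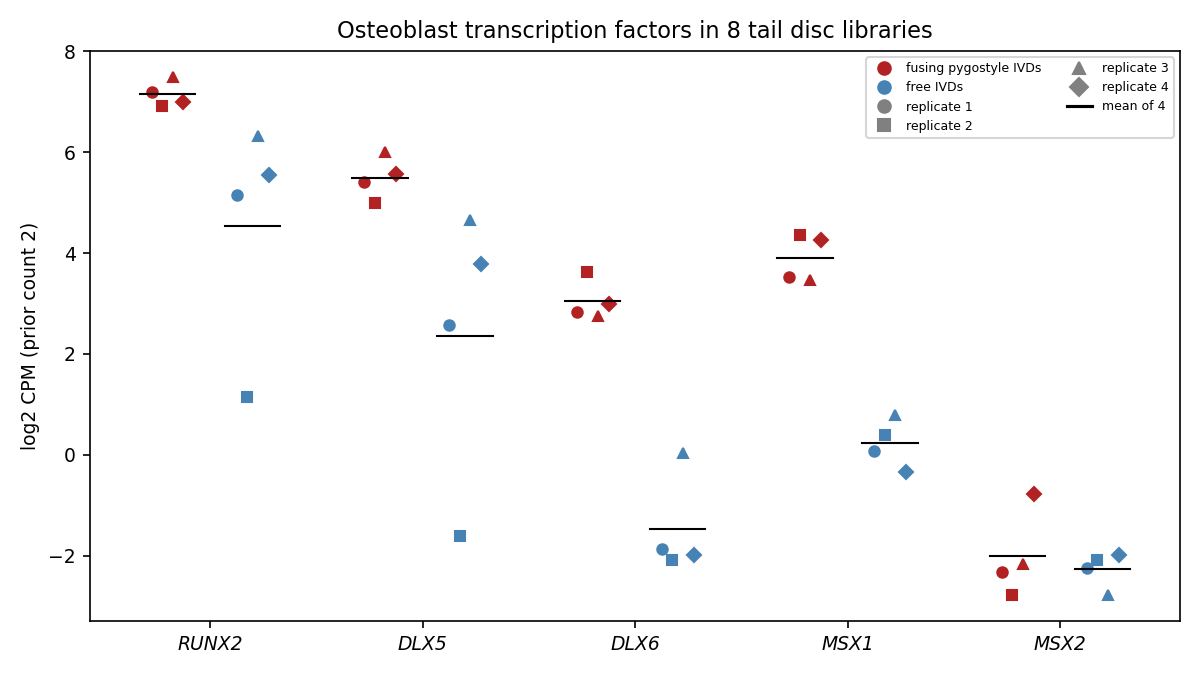
Level of each factor in each library, as log2 CPM with a prior count of 2. Red marks are the 4 fusing pygostyle IVD libraries and blue marks the 4 free IVD libraries, the marker shape gives the replicate number, and black lines are means. DLX6 and MSX1 lay far apart between the tissues, with free replicate 3 above the other free libraries for DLX6, RUNX2 and DLX5 spread widely among free libraries with free replicate 2 lowest and free replicate 3 highest, and MSX2 lay near the bottom of the scale in both tissues.

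RUNX2 lies on the plus strand of chromosome 3 from position 109294565 to 109509337 (build GRCg6a), with 8 separate exon blocks that sum to 7814 bases. It reached 147, 120, 180 and 126 CPM in fusing replicates 1 to 4, against 35.3, 2.08, 79.6 and 46.8 CPM in free replicates 1 to 4. The fusing libraries stayed close together, while the free libraries ran from near none to a level below that of the lowest fusing library. The mean was 143 ± 27.1 CPM in fusing and 40.9 ± 32.0 CPM in free IVDs (SD, n = 4 each). The log2 fold change was 1.81 ± 0.72 (SE), with an edgeR adjusted P of 0.0740, so that RUNX2 was not called. The lowest fusing library was 1.51-fold above the highest free library. The highest and lowest free libraries differed 38.3-fold, against 1.50-fold among fusing libraries.

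RUNX2 was called in 5 of 17 fits. It was called with library totals (log2 fold change 2.43, edgeR adjusted P = 0.0148), with limma-voom (2.62, adjusted P = 0.0493), and with the replicate number of the sample titles as a block (2.31, edgeR adjusted P = 0.0484). With a block made from the sample code numbers it was not (2.91, edgeR adjusted P = 0.0865). In that block free replicate 3 and fusing replicate 2 share their codes with no other library, so they do not inform the comparison. RUNX2 was also called without free replicate 2 (1.41, edgeR adjusted P = 0.00649) and without free replicate 3 (2.35, edgeR adjusted P = 0.0394). Libraries of the same title number differed by 2.05, 5.76, 1.18 and 1.43 in log2 CPM of RUNX2 (fusing minus free, numbers 1 to 4). Any pairing would give positive differences here, since every fusing library lay above every free library. RUNX2 shares its locus with SUPT3H on the opposite strand, with no exon bases in common, and with LOC107053176, with 139 exon bases in common. Counting ignored strand, so reads in those 139 bases cannot be assigned to a strand. SUPT3H, a subunit of a transcription coactivator complex, was up-regulated, with 51.7 ± 13.4 CPM in fusing and 21.6 ± 12.3 CPM in free IVDs (log2 fold change 1.26, edgeR adjusted P = 0.0295). LOC107053176 held 312 counts in fusing and 95 counts in free libraries, few beside the 8920 and 1906 counts of RUNX2.

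DLX5 lies on the minus strand of chromosome 2 from position 24451493 to 24453750, with 3 exon blocks and 1300 exon bases. Its levels were 42.2, 31.5, 63.6 and 47.3 CPM in fusing replicates 1 to 4, against 5.82, 0.181, 25.1 and 13.5 CPM in free replicates 1 to 4. The order of the free libraries was the same as for RUNX2, and free replicate 2 held only 2 DLX5 counts. DLX5 averaged 46.1 ± 13.4 CPM in fusing and 11.2 ± 10.8 CPM in free IVDs (SD, n = 4 each). The log2 fold change of 2.06 had a standard error of 0.79 and did not pass (adjusted P = 0.0653 in edgeR). The lowest fusing library lay 1.25-fold above the highest free library, and the free libraries spanned a 139-fold range. With the title number as a block DLX5 was called (log2 fold change 2.58, edgeR adjusted P = 0.0267), and with the code number as a block it was not (3.35, edgeR adjusted P = 0.0553). The code number block does not use free replicate 3 or fusing replicate 2 for the comparison, as these have no partner. DLX5 was also called without free replicate 2 (1.64, edgeR adjusted P = 0.0233) and without free replicate 3 (2.84, edgeR adjusted P = 0.0228).

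DLX6 lies on the plus strand of the same chromosome from position 24442918 to 24446535, with 3 exon blocks and 1777 exon bases, and faces DLX5 tail to tail across 4957 bases that hold no other annotated gene. DLX6 had 129, 96, 86 and 178 counts in fusing replicates 1 to 4, against 2, 1, 10 and 1 counts in free replicates 1 to 4. In CPM these were 6.96, 12.2, 6.55 and 7.80 in fusing and 0.129, 0.0904, 0.884 and 0.107 in free IVDs. Every fusing library stood at a low but clear level, and 3 of the 4 free libraries held at most 2 counts. DLX6 therefore passed the count filter only through its fusing libraries. DLX6 was up-regulated by a log2 fold change of 4.75 with a standard error of 0.61 (adjusted P = 0.000451 in edgeR), or 27.0-fold. Without free replicate 3, which held 10 of the 14 free counts, the log2 fold change was 6.11. An annotated RNA on the opposite strand, DLX6OS1, begins 960 bases to the left of DLX6. It held 37 counts in fusing and 4 counts in free libraries, a rate ratio of 7.00 (95% interval 2.51 to 27.0, counting error only), and was below the filter.

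MSX1 lies on the plus strand of chromosome 4 from position 78805634 to 78808123, with 2 exon blocks and 1312 exon bases. It was measured at 11.3, 20.2, 10.96 and 18.9 CPM in fusing replicates 1 to 4, against 0.905, 1.18, 1.59 and 0.644 CPM in free replicates 1 to 4. Neither tissue held a library that stood apart, and the lowest fusing library was 6.89-fold above the highest free library. MSX1 averaged 15.4 ± 4.90 CPM in fusing and 1.08 ± 0.405 CPM in free IVDs (SD, n = 4 each). It was up-regulated by a log2 fold change of 3.81 with a standard error of 0.34 (adjusted P = 9.77e-05 in edgeR), or 14.1-fold. MSX1 had the smallest standard error of the 4 factors tested, and its log2 fold change ranged between 3.64 and 4.04 when each library was left out in turn.

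MSX2, on the plus strand of chromosome 13 from position 10514991 to 10519580 with 1108 exon bases, was barely detected. It had 1, 0, 1 and 10 counts in fusing replicates 1 to 4, against 1, 1, 0 and 1 counts in free replicates 1 to 4. A single library, fusing replicate 4, therefore held 10 of the 12 fusing counts. The rate ratio of fusing over free was 3.03 with a 95% interval of 0.817 to 16.7 for counting error only, and a difference was not detectable at this depth. Without fusing replicate 4 the ratio was 0.796 (95% interval 0.0665 to 6.95). The count of 0 in fusing replicate 2 allows up to 0.382 CPM, and that in free replicate 3 allows up to 0.265 CPM.

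Per kb of exon, which allows genes of different length to be set side by side, DLX5 had the highest level of the 5 factors in fusing pygostyle IVDs, with 35.5 ± 10.3 CPM per kb (SD, n = 4). RUNX2 followed at 18.4 ± 3.47, MSX1 at 11.7 ± 3.73, DLX6 at 4.72 ± 1.47 and MSX2 at 0.128 ± 0.181 CPM per kb. Only RUNX2 and MSX1 overlapped among neighbors in this order, since MSX1 was level with RUNX2 in fusing replicate 2, at 15.4 CPM per kb each. In free IVDs the means were 8.58 ± 8.30 CPM per kb for DLX5, 5.24 ± 4.10 for RUNX2, 0.822 ± 0.308 for MSX1, 0.170 ± 0.218 for DLX6 and 0.0592 ± 0.0425 for MSX2. The order of the means was the same, but every pair of neighbors overlapped there. DLX5 exceeded RUNX2 in 4 of 4 fusing libraries and in 2 of 4 free libraries. In free replicate 2, where both were lowest, the level of MSX1 lay above those of RUNX2 and DLX5.

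Ratios between related factors were compared within each library, since the factors that scale libraries do not enter such a ratio. Where counts are near 0, as for MSX2 and for DLX6 in free IVDs, the ratio still depends on depth through the count added. The counts had 0.5 added, the test was an exact two-sided permutation test over the 8 libraries, and P-values were adjusted over the 3 ratios tested. With 4 against 4 libraries the smallest possible exact P is 0.0286.

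The log2 ratio of RUNX2 to RUNX1, the family member best known from blood formation, was 0.62, 0.50, 1.20 and 0.89 in fusing replicates 1 to 4, against -2.45, -6.01, -0.84 and -1.92 in free replicates 1 to 4. RUNX2 counts exceeded RUNX1 counts in every fusing library and in no free library. The difference in mean log2 ratio was 3.61, with an exact permutation P of 0.0286, the smallest possible, and 0.0429 after adjustment. That adjusted value depends on the MSX1 to MSX2 ratio having the same exact P. With libraries paired by title number the exact P was 0.125, the smallest that 4 pairs allow, so that no call was possible in that test. Both genes entered this difference. RUNX1 had 81.8 ± 11.5 CPM in fusing and 162 ± 26.8 CPM in free IVDs (SD, n = 4 each), and every fusing library lay below every free library. As RUNX2 was separated upward and RUNX1 downward, the exact P of their ratio could only be the smallest possible. The test of the ratio therefore adds nothing to these separations. The RUNX1 log2 fold change of -0.99 (edgeR adjusted P = 0.00130) was just inside the limit of 1, so RUNX1 was not called. It was called without fusing replicate 1 (-1.09), fusing replicate 2 (-1.01), free replicate 2 (-1.07) or free replicate 3 (-1.05). RUNX1 was also called with no filter (-1.001) and with the code number as a block (-1.06). When scaled by library totals it was -0.29. RUNX2 made up 56.8 ± 4.20% of the summed CPM per kb of RUNX1, RUNX2 and RUNX3 in fusing pygostyle IVDs, against 16.6 ± 12.8% in free IVDs (SD, n = 4 each).

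The log2 ratio of DLX5 to DLX6 was 2.60, 1.36, 3.27 and 2.60 in fusing replicates 1 to 4, against 5.18, 0.74, 4.76 and 6.40 in free replicates 1 to 4. It was higher in 3 of 4 free libraries than in any fusing library, and lowest of all in free replicate 2, where DLX5 had 2 counts and DLX6 had 1. The mean difference of -1.81 did not pass (exact permutation P = 0.200, adjusted 0.200). The fold changes of the neighboring genes were therefore not shown to differ.

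The log2 ratio of MSX1 to MSX2 was 7.13, 8.32, 6.59 and 5.36 in fusing replicates 1 to 4, against 3.27, 3.17, 5.21 and 2.12 in free replicates 1 to 4. The tissues did not overlap, with fusing replicate 4 and free replicate 3 nearly level. The difference was 3.41 (exact permutation P = 0.0286, adjusted 0.0429), and the exact P was 0.125 with libraries paired by title number. As MSX2 had at most 1 count in 7 of the 8 libraries, this ratio largely restates the level of MSX1.

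**Figure D2:**
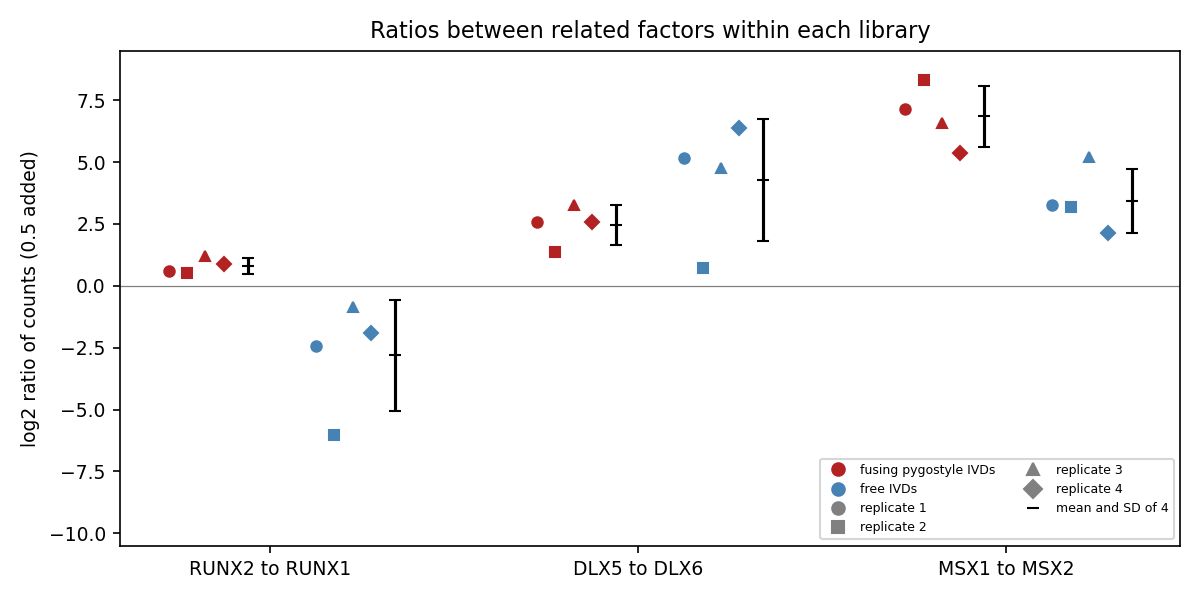
Log2 ratio of the counts of related factors within each library, with 0.5 added to each count. Red marks are fusing pygostyle IVDs and blue marks free IVDs, marker shapes give the replicate number, and bars are the mean and SD of 4 libraries. The tissues do not overlap for RUNX2 to RUNX1 or for MSX1 to MSX2, and they overlap for DLX5 to DLX6 because of free replicate 2.

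RUNX2 and DLX5 spread more widely among free libraries than nearly all other genes tested. The SD of log2(CPM + 0.5) among free libraries was 2.21 for RUNX2 and 2.29 for DLX5, against a median of 0.236 over all genes tested, with RUNX2 above 99.7% and DLX5 above 99.8% of these genes. For DLX6 this SD was 0.594 and for MSX1 it was 0.370. The 0.5 added damps the spread of genes near 0, such as DLX6, at 0.0904 to 0.884 CPM in free libraries. As a share of the mean CPM, the SD among free libraries was 128% for DLX6 and 37.5% for MSX1. That share was 78.2% for RUNX2 and 96.7% for DLX5. The highest and lowest free libraries differed 9.78-fold for DLX6, less than for RUNX2 and DLX5. IHH, a signal made by prehypertrophic cartilage cells, was the gene most like DLX5 over these libraries, LOC symbols left aside. It had 177, 81.7, 285 and 155 CPM in fusing replicates 1 to 4, against 17.9, 0.271, 79.1 and 29.9 CPM in free replicates 1 to 4. COL10A1, the collagen of hypertrophic cartilage, which was picked after its values were seen, had 17839, 8861, 23692 and 17200 CPM in fusing and 1613, 47.3, 7558 and 1638 CPM in free IVDs. Both genes had free replicate 2 lowest and free replicate 3 highest among the free libraries, as RUNX2 and DLX5 did, which for genes picked in this way is a description only. Neither was called, with a log2 fold change of 2.46 for IHH (edgeR adjusted P = 0.0718) and of 2.64 for COL10A1 (edgeR adjusted P = 0.0776).

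Hypertrophic cartilage is the enlarged cartilage that precedes bone. Of the 8 of its genes on the list, all 8 were tested, and 6 were up-regulated and none down-regulated. The 6 included SPP1, a secreted matrix phosphoprotein (log2 fold change 2.42), MMP13, a collagenase (3.45), ALPL, the alkaline phosphatase needed for mineral deposition (2.27), and MEF2C, a factor of cartilage hypertrophy (2.30); SPP1 and ALPL also stand on the bone list and MEF2C on the regulator list. The count was 3 without any 1 of the 4 fusing libraries, free replicate 1 or free replicate 4. All 8 genes had free replicate 2 lowest and free replicate 3 highest among the free libraries, an order found in 1908 of 13639 genes tested (13.99%) and in RUNX2, DLX5 and DLX6. The same order was found in 6 of 14 bone matrix and osteocyte genes, SPP1 and ALPL among them. It was found in 5 of 15 other osteoblast regulators, SP7 and MEF2C among them, in 7 of 18 BMP genes and in DLX3. It was also found in 3 of 10 cartilage, 2 of 8 endothelial and 1 of 10 osteoclast genes, in RUNX3 and in the 2 tested notochord genes. None of the tested macrophage, heterophil, fibrous connective tissue, skeletal muscle, red cell or epidermis genes had it. SPP1, ALPL and MEF2C are thus counted again, and which cells the order comes from was not tested. The summed level of the 8 genes lay between 13198 and 29268 CPM in fusing libraries and between 227 and 9472 CPM in free libraries. Free replicate 2 had the lowest of these sums and free replicate 3 the highest free sum. What part cartilage cells had in the levels of RUNX2 and DLX5 was not tested.

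**Figure D3:**
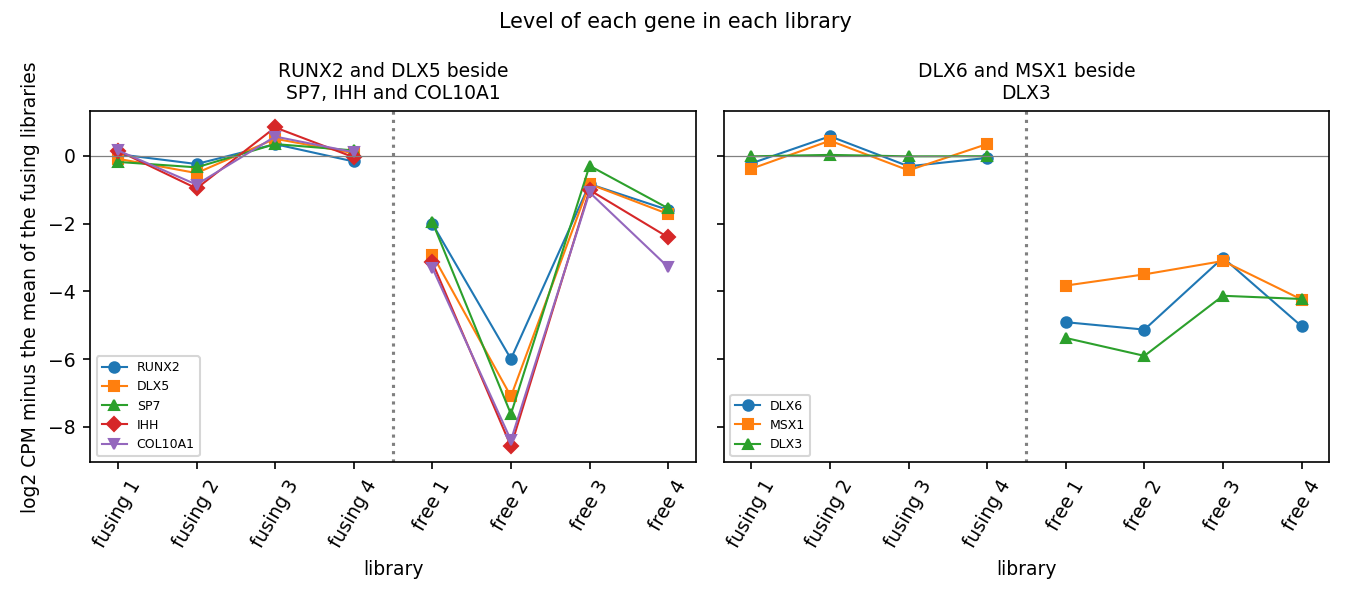
Log2 CPM of each gene in each library minus that gene's mean over the 4 fusing libraries, with the fusing libraries left of the dotted line and the free libraries right of it; lines only join the values of 1 gene. RUNX2 and DLX5 dip with SP7, IHH and COL10A1 in free replicate 2 and, among free libraries, lie nearest to the fusing level in free replicate 3. DLX6, MSX1 and DLX3 stay low in all 4 free libraries.

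The genes most like each factor were found by Pearson's correlation of log2 CPM over the 8 libraries. These correlations share the difference between the tissues and are given as a description. Genes whose symbols start with LOC were left out. Closest to RUNX2 were SMPD3, a sphingomyelinase needed for skeletal mineralization in mice (r = 0.999), AGPAT4, an acyltransferase of lipid synthesis (r = 0.997), and PTPRK, a receptor tyrosine phosphatase (r = 0.995). Closest to DLX5 were IHH (r = 0.996), RUNX2 (r = 0.994) and ZNF488 (r = 0.994). Closest to DLX6 were CSF1R, the macrophage growth factor receptor (r = 0.994), PHEX, an enzyme of osteocytes (r = 0.994), and FAM234A (r = 0.994). Closest to MSX1 were IFI30, a lysosomal reductase of antigen-presenting cells (r = 0.995), ABCA9 (r = 0.994) and BPIL (r = 0.992). Among the factors themselves, deviations from the tissue means correlated at 0.99 for RUNX2 with DLX5 and at 0.71 for DLX6 with MSX1, at 0.51 for DLX5 with DLX6, at 0.49 for RUNX2 with DLX6, at -0.11 for DLX5 with MSX1 and at -0.12 for RUNX2 with MSX1 (n = 8 libraries each). PHEX showed the sharp separation of DLX6, with 277, 268, 247 and 232 CPM in fusing replicates 1 to 4, against 0.711, 0.904, 10.3 and 0.858 CPM in free replicates 1 to 4.

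The RUNX family did not move as a unit. RUNX3 was up-regulated at a low level, with 8.89 ± 1.73 CPM in fusing and 3.50 ± 2.12 CPM in free IVDs (SD, n = 4 each; log2 fold change 1.35, edgeR adjusted P = 0.0357). Its call was lost without any 1 of the 4 fusing libraries, free replicate 1 or free replicate 4, at edgeR adjusted P-values of 0.0550 to 0.0883. It was also lost with the code number as a block (edgeR adjusted P = 0.0516). CBFB, the shared partner subunit, had 152 ± 28.9 CPM in fusing and 152 ± 13.6 CPM in free IVDs (log2 fold change 0.00, SE 0.15), but 0.68 when scaled by library totals.

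Among the other DLX genes, DLX3 was the only 1 of 4 with enough counts to be tested, and it was up-regulated. It passed the count filter only through its fusing libraries. DLX3, which takes part in bone, tooth and skin formation in mammals, had 8.53, 8.79, 8.52 and 8.55 CPM in fusing replicates 1 to 4, against 0.0646, 0, 0.354 and 0.322 CPM in free replicates 1 to 4. Its fusing libraries hardly differed and its free libraries were near none, with a log2 fold change of 5.56 and a standard error of 0.53 (adjusted P = 0.000130 in edgeR). DLX4 held 25 counts in fusing and 1 count in free libraries (rate ratio 18.9, 95% interval 3.10 to 777), DLX2 held 15 and 2 counts (5.68, 1.32 to 51.2), and DLX1 held 5 counts in each tissue (0.757, 0.174 to 3.29). These intervals cover counting error only. In fusing replicates 1 to 4, DLX4 held 14, 0, 3 and 8 counts and DLX2 held 5, 0, 5 and 5 counts. For both genes the tissues overlapped.

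**Figure D4:**
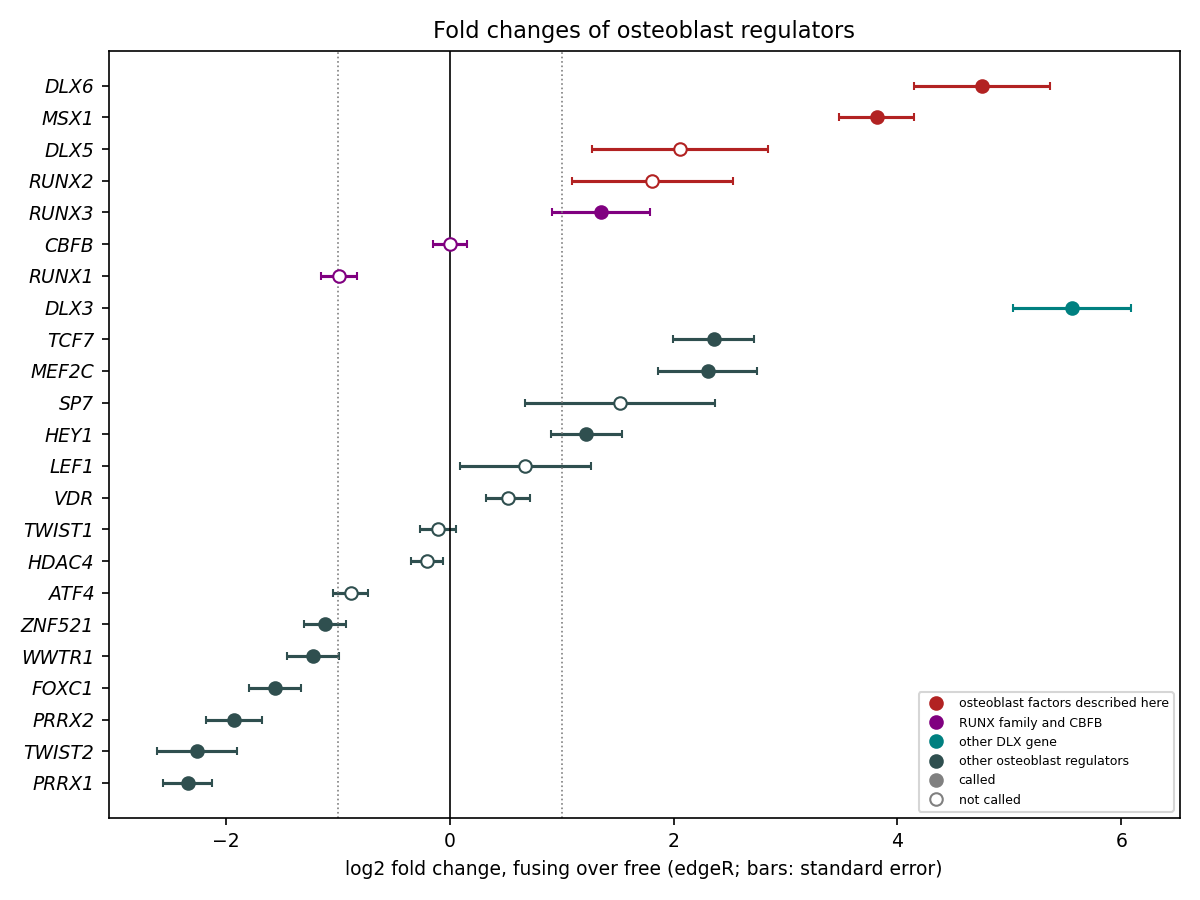
Log2 fold change, fusing over free, with its standard error from edgeR for each tested osteoblast factor and related regulator; filled points were called and dotted lines mark the fold change limits. DLX6, MSX1 and DLX3 stand furthest right, RUNX2, DLX5 and SP7 have wide bars and were not called, and 6 called regulators, from ZNF521 to PRRX1, lie to the left.

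Of 17 other regulators of osteoblasts, 15 were tested, and 3 were up-regulated and 6 down-regulated, with a median log2 fold change of -0.20. The 3 were TCF7, a WNT effector (log2 fold change 2.36), MEF2C (2.30) and HEY1, a NOTCH target (1.22). For HEY1 the tissues overlapped, with 23.2 CPM in free replicate 3 and 21.8 CPM in fusing replicate 2. TCF7 had 13.9, 18.2, 7.61 and 11.8 CPM in fusing replicates 1 to 4, against 2.33, 3.62, 2.83 and 1.18 CPM in free replicates 1 to 4. Its tissues did not overlap (adjusted P = 0.00107 in edgeR). SP7 had 72.6, 64.9, 105 and 91.9 CPM in fusing replicates 1 to 4, against 21.1, 0.271, 67.1 and 28.0 CPM in free replicates 1 to 4. The tissues overlapped, since free replicate 3 exceeded fusing replicate 2, and SP7 was not called (log2 fold change 1.52, edgeR adjusted P = 0.187).

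The 6 down-regulated regulators were PRRX1 (log2 fold change -2.34) and PRRX2 (-1.93), homeobox genes of connective tissue precursors, TWIST2 (-2.26), a repressor of osteoblast maturation in mice, FOXC1 (-1.56), a forkhead factor of mesenchyme, the coactivator WWTR1 (-1.22), also called TAZ, and ZNF521 (-1.12), a zinc finger protein that restrains RUNX2 in mice. PRRX1 had 27.7, 14.1, 17.8 and 19.6 CPM in fusing replicates 1 to 4, against 101, 117, 76.8 and 110 CPM in free replicates 1 to 4. The tissues were far apart for PRRX1. Scaling by library totals moved the median log2 fold change of all genes to 0.70, and FOXC1, WWTR1 and ZNF521 were then not called, while SP7 and VDR were, so that 5 regulators were up-regulated and 3 down-regulated. ZNF521 was also not called without fusing replicate 2, at a log2 fold change of -0.998.

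Among 18 genes of BMP signaling, the pathway upstream of MSX and DLX genes in embryos, all 18 were tested, and 4 were up-regulated and 3 down-regulated, with a median log2 fold change of -0.34. The BMP target ID2 (log2 fold change 1.38) and the BMP antagonist GREM1 (2.17) were up-regulated, while the antagonist CHRD (-3.17) and the ligand BMP7 (-1.07) were down-regulated. The others called were the ligand BMP5 (2.20) and the receptor BMPR1B (2.04), up-regulated, and the signal transducer SMAD9 (-1.36), down-regulated. The BMP targets ID1 (-0.53) and ID3 (-0.41) were not called. GREM1 was not called without any 1 of the 4 fusing libraries, free replicate 1 or free replicate 4, at log2 fold changes of 1.98 to 2.32. With the code number as a block GREM1 was not called either (3.23, edgeR adjusted P = 0.0540). BMP7 was not called without fusing replicate 4 (-0.98) or free replicate 1 (-0.79). With library totals, BMP7 was not called and 1 of the 18 genes was down-regulated.

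The bone matrix and osteocyte genes, many of them targets of RUNX2 or DLX5 in mammals, numbered 14. All were tested, 10 were up-regulated and 3 down-regulated, and the median log2 fold change was 4.53. The 3 were COL1A1 (-2.66), COL1A2 (-2.36) and SPARC (-1.93). Which cells made the RNA of the 14 genes was not tested. COL1A1 stood at 13887, 20150, 14058 and 17419 CPM in fusing replicates 1 to 4, against 78420, 172439, 57774 and 106615 CPM in free replicates 1 to 4. SPP1, by contrast, had 3219 ± 584 CPM in fusing and 603 ± 392 CPM in free IVDs (SD, n = 4 each). Picked after the values were seen, IBSP, the bone sialoprotein, had 546, 478, 547 and 769 CPM in fusing replicates 1 to 4, against 3.75, 0.452, 40.8 and 8.58 CPM in free replicates 1 to 4. BGLAP, the osteocalcin gene, also picked so, had 63.2, 406, 44.6 and 352 CPM in fusing and 7.30, 2.89, 4.42 and 4.83 CPM in free IVDs.

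Markers of other cell types also differed between the tissues, and their part in the levels of the osteoblast factors was not tested. All 7 macrophage genes were up-regulated, with summed levels of 713 to 1469 CPM in fusing and 113 to 278 CPM in free libraries. All 7 heterophil genes were up-regulated, with sums of 330 to 1567 CPM in fusing and 26.0 to 142 CPM in free libraries. Of 10 osteoclast genes 6 were up-regulated and 1 down-regulated, with sums of 3666 to 4991 CPM in fusing and 859 to 1947 CPM in free libraries. Of 10 fibrous connective tissue genes 8 were down-regulated and 1 up-regulated, with sums of 3346 to 5066 CPM in fusing and 35683 to 64149 CPM in free libraries. Of 10 cartilage genes 1 was up-regulated and 3 were down-regulated, with sums of 56017 to 159061 CPM in fusing and 148988 to 236334 CPM in free libraries. Skeletal muscle genes summed to 978 CPM in fusing replicate 4 and to at most 13.9 CPM in the other fusing libraries, against 21.4 to 588 CPM in free libraries, and none of 6 was called. None of 8 endothelial genes was called, and their sums were 206 to 245 CPM in fusing libraries, against 96.7, 96.1, 438 and 372 CPM in free replicates 1 to 4. Free replicate 3, the free library with the most RUNX2 and DLX5, was the highest free library in 7 of 8 endothelial, 7 of 10 osteoclast and 5 of 7 macrophage genes, against 3727 of 13639 genes tested. The osteoclast gene ACP5, picked after its values were seen, had 485, 481, 441 and 496 CPM in fusing replicates 1 to 4, against 1.81, 1.27, 62.7 and 0.858 CPM in free replicates 1 to 4. Of 5 red cell genes 2 were up-regulated. Of 8 epidermis genes 2 could be tested and 1 was up-regulated, KRT6A was at 0 in every library, and KRT5 held only 1 count, in fusing replicate 2. Of the notochord genes 2 could be tested and neither was called. KRT18 held 48 counts, all in free replicate 2, and NOTO held 2 counts, all in fusing replicate 4. KRT19, also below the filter, held 121 counts in fusing replicate 4 and 65 counts in free replicate 2.

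**Figure D5:**
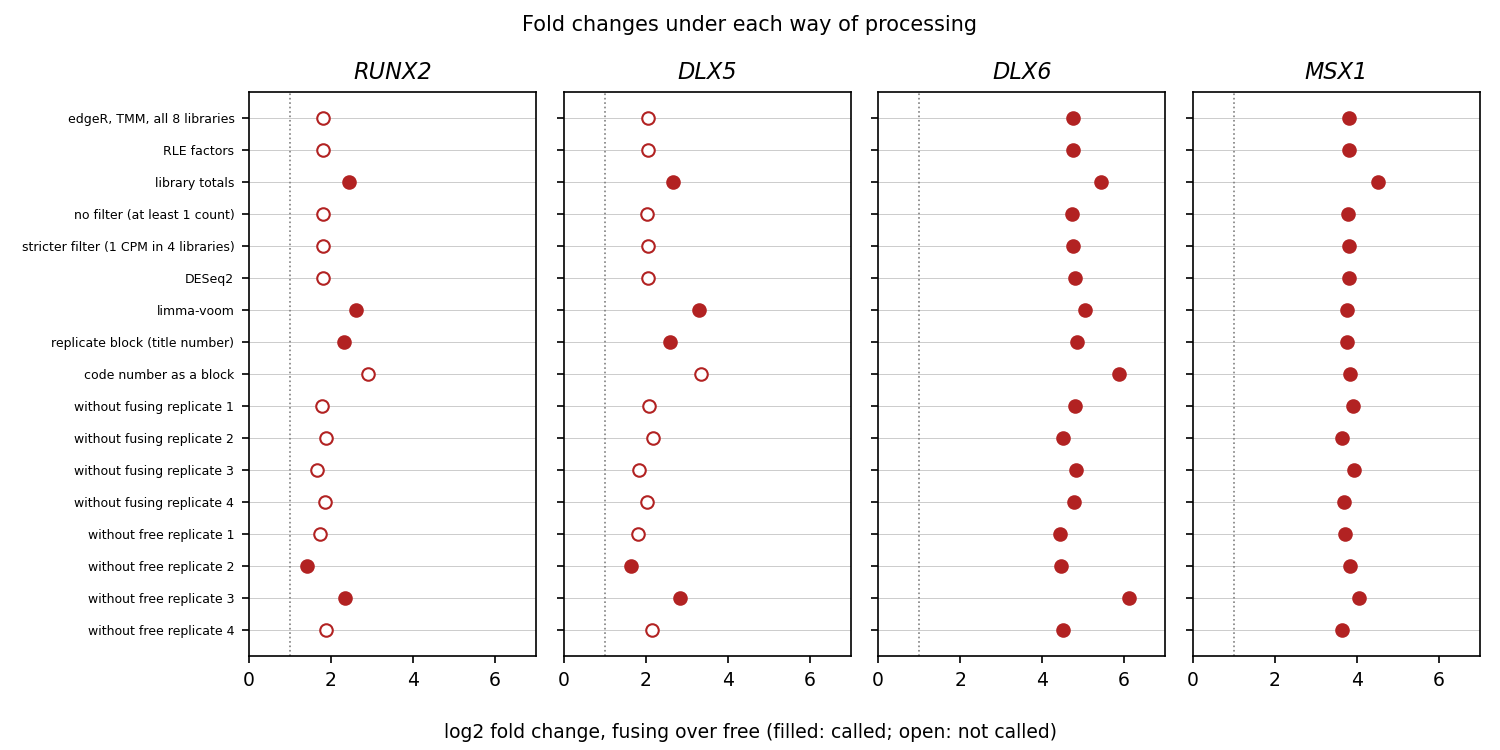
Log2 fold change, fusing over free, of the 4 tested factors under each way of processing, from the edgeR fit on all 8 libraries at the top to the fits without 1 library at the bottom; filled points were called and the dotted line marks a log2 fold change of 1. DLX6 and MSX1 were called in all 17 fits, while RUNX2 and DLX5 were called in 5 of 17.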

How the data were processed

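The authors sequenced polyA-selected mRNA as unstranded read pairs, aligned the reads to GRCg6a with STAR and counted them per gene with featureCounts, without reads that mapped to several genes. They deposited whole-number counts for 24154 genes in 8 libraries, without normalization, and an exon length per gene, here a value of another kind that the authors took from the annotation. A second deposited table holds the authors' own comparison (mean normalized counts, fold changes and P-values) and was not used. Samples were grouped by their titles.

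From the counts, edgeR 4.0.16 (R 4.3.3; filterByExpr with a minimum count of 10 and total of 15, TMM factors, quasi-likelihood test over 8 libraries without other terms) tested 13639 genes. Standard errors came from the test statistic. CPM used TMM factors, and log2 CPM used a prior count of 2. Gene positions came from the deposited annotation, and chromosome names from matching its genes to a RefSeq gene table. The test was checked on simulated counts with the same dispersion for every gene. That check does not cover genes that spread as widely among free libraries as RUNX2 and DLX5. Intervals at 95% and limits for counts of 0 (3 counts) cover counting error only. With 4 libraries per tissue, exact tests have a smallest P of 0.0286. All libraries of a tissue differed beyond sampling noise. P-values of the fits set the difference between tissues against the spread between these libraries.

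The genes described and all lists were chosen with earlier results of these data known, and 1 regulator is not reported here. The 5 factors were always named, with called members of the RUNX, DLX and osteoblast regulator lists. Of other lists, up to 4 called members of highest mean CPM were named. For each factor the 3 genes with the highest correlation over the 8 libraries were named too. That search covered tested genes with a mean CPM of 5 or more and left out symbols that start with LOC. Deviations from the tissue means correlated at r = 0.24, 0.16, 0.11 and 0.25 between libraries that share a title number. For the shared code numbers 12, 10 and 8, r was 0.24, -0.06 and 0.25. Libraries with different numbers were not compared in this way, so these values do not show that either number marks a pairing. Title numbers 2 and 3 join libraries with different code numbers. The numbers were treated as pairing the libraries only in alternative fits, and the sources used here do not state what they mark. Other alternatives were DESeq2 1.42.0, limma-voom (limma 3.58.1), RLE factors, library totals, no filter, a stricter filter (1 CPM in 4 libraries), a block made from the sample code numbers, leaving out each library, and, for ratios, 1 added to each count or paired differences.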

Additional observations from a re-analysis of the deposited data

Results flagged for a closer look

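Among 42 sets of 4 libraries examined (CPM of 18 regulators and 3 log2 ratios in each tissue), 3 held a library whose gap to its nearest neighbor took more of the whole range than Dixon's 95% limit for 4 values, and chance gives about 1 in 20. DLX6 in free libraries had a gap of 0.951 of the range, from free replicate 3 at 0.884 CPM, with the others at 0.0904 to 0.129 CPM. DLX3 in fusing libraries had a gap of 0.906, from fusing replicate 2 at 8.79 CPM, although the 4 values lay between 8.52 and 8.79 CPM. MEF2C in fusing libraries had a gap of 0.842, from fusing replicate 3 at 316 CPM, with the others at 211 to 228 CPM. RUNX2, DLX5, MSX1 and MSX2 held no such library in either tissue by CPM, although fusing replicate 4 held 10 of the 12 fusing counts of MSX2.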

How the results depend on the processing

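The count of up-regulated factors was 2 in the edgeR fit with TMM factors and 4 with library totals, with limma-voom and with the replicate number of the titles as a block. It ranged between 2 and 4 when 1 library was left out, reaching 4 without free replicate 2 or free replicate 3. RUNX2 and DLX5 made the difference each time, and the cause was not tested. Over 16 alternatives the log2 fold change was 1.41 to 2.91 for RUNX2 and 1.64 to 3.35 for DLX5, against 4.44 to 6.11 for DLX6 and 3.64 to 4.51 for MSX1, which kept their calls in all 16. The upper ends for RUNX2 and DLX5 came from the code number block, in which free replicate 3 and fusing replicate 2 had no partner. As a block, the title numbers also brought COL10A1 and IHH over the limit (log2 fold changes 3.77 and 3.21). With the replicate block, the paired difference in log2 ratio was 3.61 for RUNX2 to RUNX1, -1.81 for DLX5 to DLX6 and 3.41 for MSX1 to MSX2, with exact P-values of 0.125, 0.250 and 0.125, none under 0.05, where the smallest that 4 pairs allow is 0.125. Leaving out 1 library moved these differences over 2.54 to 4.26, -2.99 to -1.10 and 2.92 to 4.00. With library totals, 4179 genes were up-regulated and 624 down-regulated over the whole table, and 5 of the 15 other regulators were up-regulated and 3 down-regulated. Without a filter MSX2 had a log2 fold change of 1.30 (edgeR adjusted P = 0.387), and 2 of the 4 other DLX genes were up-regulated. Depth limits MSX2, DLX1, DLX2 and DLX4, which had too few counts to be tested otherwise.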
